A study of Mus musculus with 6 samples.

Results

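The genes described here encode the machinery of mitosis. They are 39 genes, taken by symbol from the 23337 gene rows of the count tables, and fall into 9 groups by role: mitotic entry kinases and cyclins, transcription factors, chromosome structure, the chromosomal passenger complex, centromere and kinetochore, the spindle assembly checkpoint, activators of the anaphase-promoting complex, spindle motors and microtubule proteins, and the central spindle with cytokinesis. RNA was sequenced from stromal fibroblasts of the mouse mammary gland, in 3 libraries from cpdm/cpdm mice, which lack functional SHARPIN, and 3 from wt/wt mice, all C57BL/KaLawRij mice. Every cell of a mutant animal carries the cpdm allele, so the mutation was not limited to fibroblasts. Each library pooled 3 mice aged 7 weeks, and the cells were grown in serum to confluence at passage 0 before lysis, so all values describe cultures and not the gland itself.

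Mitosis is driven by cyclin-dependent kinase 1 with cyclins A and B, and is ended when the anaphase-promoting complex marks cyclin B and securin for destruction. Most genes of this machinery are switched on together late in the cell cycle: in resting cells the DREAM complex, whose MuvB core binds the cell cycle genes homology region (CHR) of their promoters, holds them silent, and in cycling cells MuvB joins B-Myb and FOXM1 to activate them. CCAAT boxes bound by NF-Y lie near many of these sites. In fibroblasts grown to confluence, contact between cells withdraws most of them from the cycle, and these transcripts are used as markers of dividing cells.

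The promoters are shown for Psrc1, Anln, Prc1 and Bub1b, the 4 members called higher in Sharpin-cpdm when libraries were compared within their number (0 were called otherwise), and for 3 textbook genes of mitosis from the same list (Ccnb2, Cdc20 and Plk1). Each sequence runs from 100 bases before to 30 bases after the transcription start of RefSeq (GRCm38.p6), with CHR and CCAAT matches on either strand in capitals.
Psrc1 (chr3:108383704-108383833, plus strand): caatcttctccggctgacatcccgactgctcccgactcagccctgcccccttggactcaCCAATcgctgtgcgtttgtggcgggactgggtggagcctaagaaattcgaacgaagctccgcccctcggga
Anln (chr9:22389177-22389306, minus strand): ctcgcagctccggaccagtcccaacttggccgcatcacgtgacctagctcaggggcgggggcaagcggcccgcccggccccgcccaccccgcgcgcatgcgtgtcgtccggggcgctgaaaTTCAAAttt
Prc1 (chr7:80294351-80294480, plus strand): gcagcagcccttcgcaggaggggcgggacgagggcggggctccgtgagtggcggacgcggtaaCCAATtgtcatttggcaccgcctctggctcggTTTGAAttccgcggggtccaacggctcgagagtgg
Bub1b (chr2:118598111-118598240, plus strand): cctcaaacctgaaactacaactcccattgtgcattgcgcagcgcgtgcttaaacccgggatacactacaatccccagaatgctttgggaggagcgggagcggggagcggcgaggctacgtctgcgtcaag
Ccnb2 (chr9:70421525-70421654, minus strand): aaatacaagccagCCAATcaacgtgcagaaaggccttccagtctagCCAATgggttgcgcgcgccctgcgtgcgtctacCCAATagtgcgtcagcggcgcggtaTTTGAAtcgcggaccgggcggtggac
Cdc20 (chr4:118437314-118437443, minus strand): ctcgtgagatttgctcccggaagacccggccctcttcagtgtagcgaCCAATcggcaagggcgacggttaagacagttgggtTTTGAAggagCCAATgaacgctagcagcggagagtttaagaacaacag
Plk1 (chr7:122159335-122159464, plus strand): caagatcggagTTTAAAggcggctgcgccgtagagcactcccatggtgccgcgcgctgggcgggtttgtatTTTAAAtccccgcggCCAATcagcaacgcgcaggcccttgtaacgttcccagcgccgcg

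A CHR was counted as TTTGAA or TTTAAA and a CCAAT box as CCAAT, on both strands, in windows from 250 bases before to 50 after the start. A CHR and a CCAAT box can share letters, as they do in Cdca8. RefSeq windows were matched for 34 of the 39 members, with 38 windows in all because 4 genes have 2 starts. A CHR was found in 31 of the 38 windows (81.6%), against 27.6% of all 32851 windows of that length. A CCAAT box was found in 81.6% of member windows and 37.4% of all windows, and both motifs in 71.1% and 10.7%. At least 2 CCAAT boxes were found in 55.3% of member windows and in 11.7% of all. E2F-like letters (TTCCCGC or TTCGCGC or TTGGCGC or TTTCCCG, some of which can overlap each other) were found in 23.7% and 10.1%, and a TATA-like TATAAA in 2.63% and 13.6%. The CHR of Prc1 spans the start shown, and that of Ccnb2 lies 5 to 10 bases after it. Anln holds a CHR 22 to 27 bases after the start and no CCAAT box anywhere in its window. A second CHR of Anln, 29 to 34 bases after the start, runs past the stretch shown. In Psrc1 no CHR was found in either window, only CCAAT and E2F-like letters, and in Bub1b the CHR lies 41 to 46 bases after the start and the CCAAT box before base -100, so that its stretch has no capitals. These matches describe letters in promoters, and binding was not measured.

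**Figure D1:**
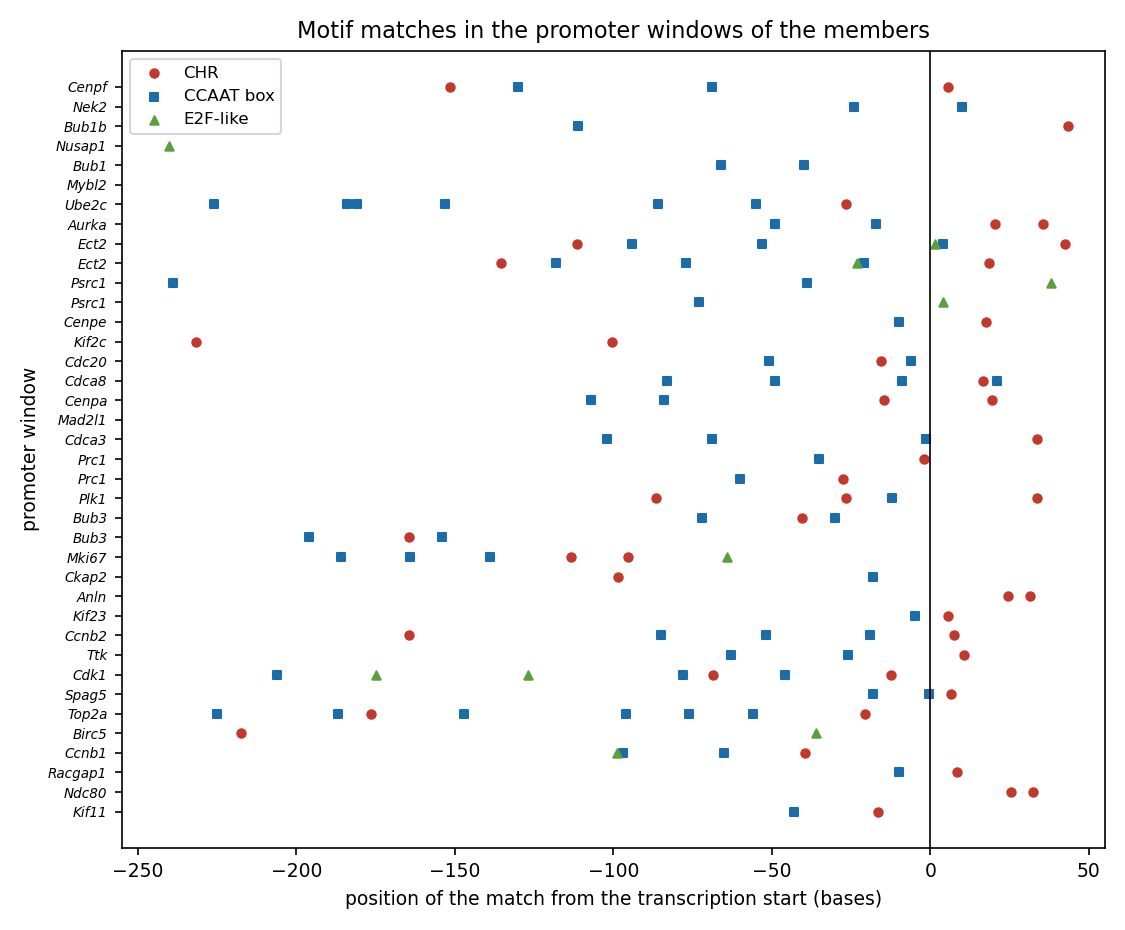
Positions of CHR (red circles), CCAAT box (blue squares) and E2F-like (green triangles) matches in the 38 promoter windows of 34 members, by distance in bases from the transcription start (0, vertical line). In 31 windows at least 1 CHR is present, and in 27 it lies between 100 bases before and 50 after the start.

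The libraries held between 13570649 and 15656196 counts assigned to genes. Sharpin, which checks the labels, stood at 10.5, 9.13 and 9.50 CPM (counts scaled to a common total of gene counts per library) in mutant cultures 1 to 3 and at 24.5, 25.2 and 31.2 CPM in wild-type cultures 1 to 3, so every mutant library lay below every wild-type library (log2 fold change -1.48 ± 0.12, edgeR adjusted p 0.00598 with the replicate block described below and 0.272 without it). The fibroblast markers Col1a1 and Col1a2 lay between 18418 and 24696 CPM in all 6 libraries. Col3a1, another fibroblast marker, varied more, between 13708 and 34733 CPM. It was lower in each mutant library than in the wild-type library of the same number (log2 fold change -0.39 ± 0.08, edgeR with the block, adjusted p 0.0598). Defining markers of endothelium (Pecam1, 79.1 to 236 CPM) and mammary epithelium (Krt8, 38.8 to 130.04 CPM, and Krt5, 0.402 to 19.4 CPM) were also present. Of the macrophage markers, Csf1r lay between 5.94 and 25.7 CPM and Cd68 between 4.18 and 17.4 CPM, and Ptprc reached 4.85 CPM. The adipocyte markers Adipoq, Plin1 and Lep and the lymphocyte markers Cd3e and Cd3d stayed at or below 0.201 CPM.

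Every one of the 39 mitosis and spindle transcripts had a log2 fold change above 0 in Sharpin-cpdm, whether or not libraries were compared within their number. The median log2 fold change was 0.28 over the members and -0.003 over all 13442 genes tested, of which 49.1% lay above 0 (49.5% with the block). In sum, the 39 genes came to 2242, 2025 and 1911 CPM in mutant cultures 1 to 3 and to 1895, 1798 and 1408 CPM in wild-type cultures 1 to 3, between 0.141% and 0.224% of all gene counts. All 3 mutant libraries lay above all 3 wild-type libraries, although Sharpin-cpdm library 3 and wild-type library 1 were almost level. The means were 2059 ± 168 CPM for the mutant and 1700 ± 258 CPM for wild type (SD, n = 3 each). In such bulk RNA, more dividing cells and more of each transcript per dividing cell cannot be told apart.

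Tested without regard to library number, 0 of the 39 members was called by edgeR's quasi-likelihood F-test at a threshold of 0.05, after Benjamini-Hochberg adjustment over all tested genes, as were 0.0% of all genes. Their adjusted p was 1.0 throughout. Unadjusted p was under 0.05 for 4 members (Bub1b, Psrc1, Ckap2 and Prc1), which is 10.3%, against 0.521% of all genes with a higher level in the mutant. DESeq2 and limma-voom without the number also called 0 members, where DESeq2 called 0.0149% of all genes higher. The labels number the libraries of each genotype 1 to 3. When mutant and wild-type libraries were set against each other within their number, by a replicate block in edgeR, Psrc1, Anln, Prc1 and Bub1b rose and 0 members fell; these 4 are 10.3% of the list, and 0.394% of all tested genes rose. Unadjusted p was then under 0.05 for 36 members (92.3%), all higher, and for 7.49% of all genes in that direction. From here on, rose and fell are used for genes that passed in that fit with the block, and log2 fold changes with their standard errors are from it unless stated otherwise. The log2 fold changes of the members differed by at most 0.06 between the fits, while their standard errors went from between 0.11 and 0.41 to between 0.04 and 0.16. The count rests on which libraries are in it: with the block, 8 members rose without the libraries numbered 1 (0.967% of all genes), 0 without those numbered 2 (0.112%) and 0 without those numbered 3 (0.0298%).

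Within the numbers, 38 of 39 members were higher in the mutant in all 3 comparisons (97.4%), where 22.7% of all tested genes were. The exception was Cenpf, a kinetochore protein, at 27.0 CPM in Sharpin-cpdm library 2 and 27.98 CPM in wild-type library 2. The median log2 ratio over the members was 0.25, 0.19 and 0.44 for numbers 1, 2 and 3, beside 0.006, -0.008 and 0.042 over all tested genes. Library number 3 gave the largest ratio for 34 of the 39 members and for 43.1% of all genes. Without wild-type library 3, the median log2 fold change of the members in the fit without the block was 0.15 and 38 members were above 0. Irrespective of number, mutant and wild-type CPM were apart for 12 members (30.8%), all higher in the mutant; of all tested genes 3.35% were apart and higher and 2.59% apart and lower.

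**Figure D2:**
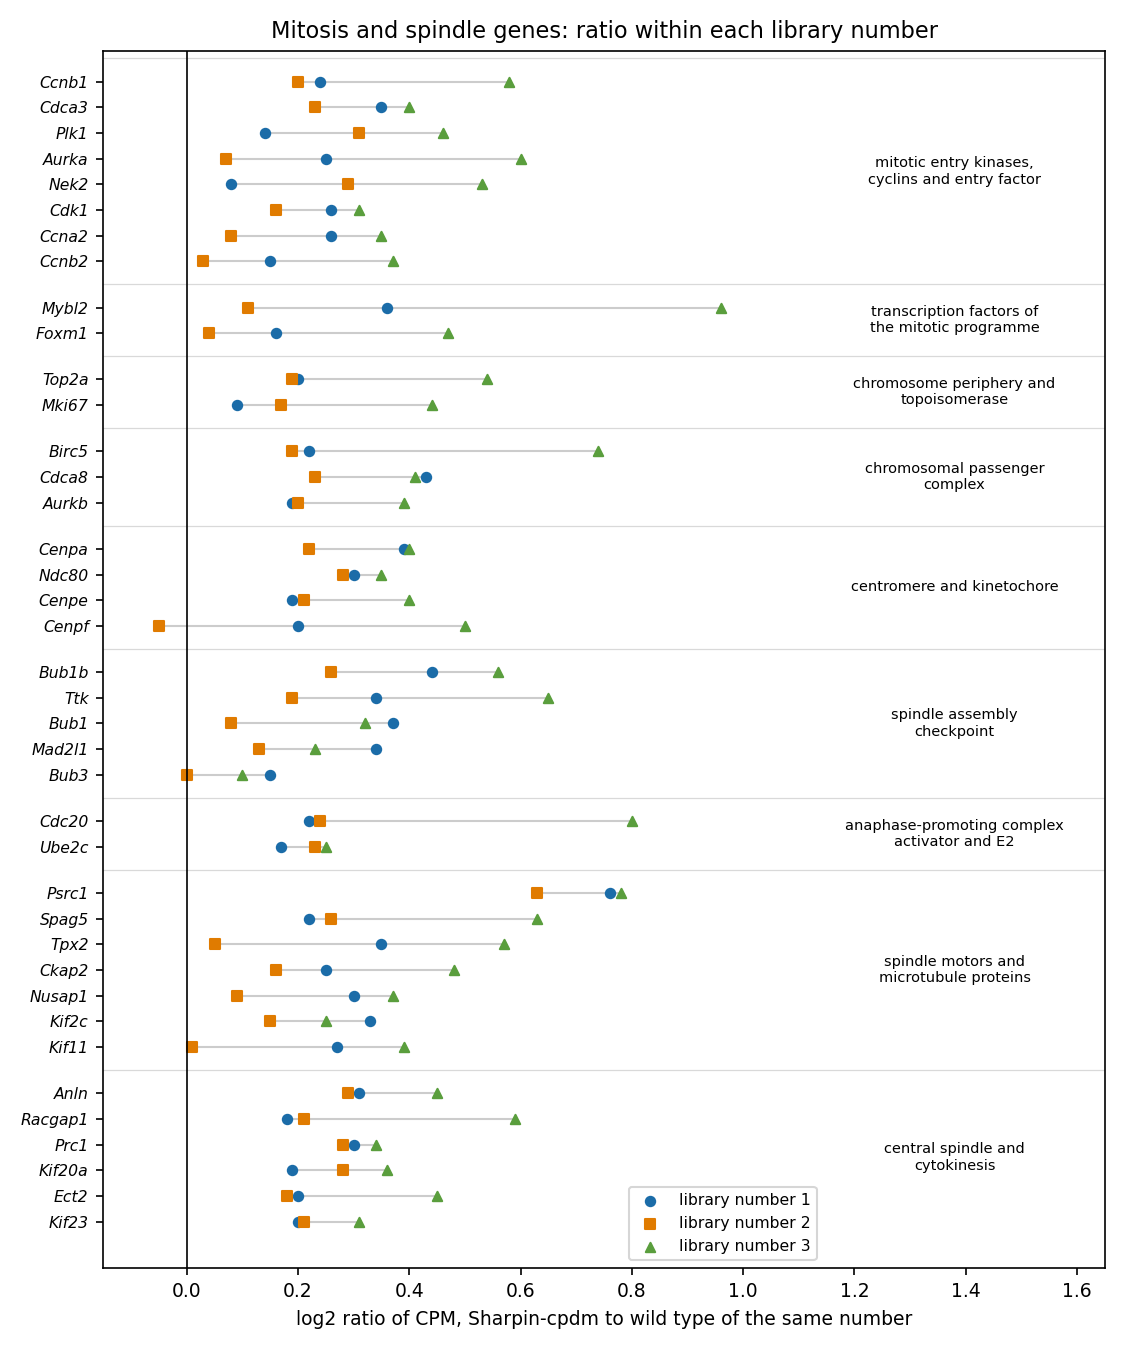
Log2 ratio of CPM (prior count 2) between the Sharpin-cpdm and the wild-type library of the same number for each of the 39 members, grouped by role; circles, squares and triangles are numbers 1, 2 and 3, and grey lines span them. All points lie above 0 except that of Cenpf in number 2, with Bub3 close to 0 there, and number 3 is the largest for 34 members.

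Markers of other cells moved between the same libraries. The 18 endothelial markers summed to 599, 741 and 874 CPM in mutant cultures 1 to 3 and to 790.0, 1302 and 1397 CPM in wild-type cultures 1 to 3, with an overlap between mutant culture 3 and wild-type culture 1. With the block 14 of them fell, as did 2.11% of all genes, and 0 rose, with a median log2 fold change of -0.79. EdgeR without the block called 0 of them. Sharpin-cpdm library 1 thus had the lowest endothelial and the highest mitotic sum, and wild-type library 3 the highest endothelial and the lowest mitotic sum. Of the 12 fibroblast markers 3 fell (Lum, Fap and Dcn) and 0 rose, with a median of -0.17. The list was split, with 8 below 0 and 4 above, up to 0.32. Mutant and wild-type CPM were apart and higher in the mutant for 3 of the 12, and apart and lower for 1. Of all tested genes 3.35% were apart and higher and 2.59% apart and lower. Of the 8 pericyte markers, 3 of 7 tested fell, with a median of -0.43. Macrophage markers summed to between 144 and 381 CPM in the mutant and between 77.1 and 449 CPM in wild type, and epithelial markers to between 219 and 462 CPM and between 324 and 569.7 CPM, with 0 called by edgeR, DESeq2 or limma-voom with the block in either list. At an unadjusted p under 0.05 each of these lists held 1 gene, which was lower. Of all 13442 tested genes 2327 passed that p in either direction. Adipocyte markers, of which Fabp4 fell, came to at most 93.8 CPM and lymphocyte markers to at most 0.368 CPM. The part of these cells in the differences of the mitotic genes was not tested.

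**Figure D3:**
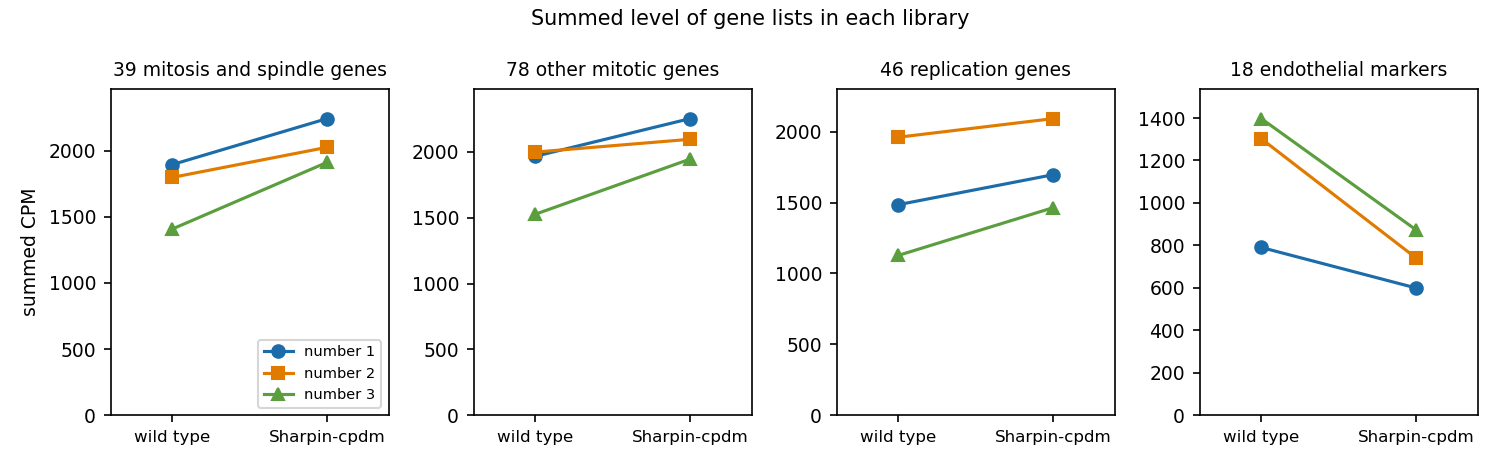
Summed CPM in each library of the 39 members, 78 other mitotic genes, 46 DNA replication genes and 18 endothelial markers; lines join libraries of the same number. The 3 cell cycle sums are higher in Sharpin-cpdm in every number, by ratios of 1.18, 1.13 and 1.36 for the members, and the endothelial sum is lower in every number.

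Psrc1 had the largest change of the list. It encodes a microtubule-binding protein of the spindle, and lies on chromosome 3 at 108383839 to 108388231 (mm10, plus strand). Its levels were 15.5, 18.05 and 14.3 CPM in mutant cultures 1 to 3 and 9.09, 11.6 and 8.22 CPM in wild-type cultures 1 to 3. The groups were apart, and every number gave a similar log2 ratio, 0.76, 0.63 and 0.78. The log2 fold change was 0.72 ± 0.10 (SE, 3 libraries each) and edgeR with the block gave an adjusted p of 0.0221.

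Anln encodes anillin, the scaffold that ties actin and myosin to the membrane of the cleavage furrow (chromosome 9, 22332012 to 22389188, minus strand). It stood at 135, 125 and 110.04 CPM in mutant cultures 1 to 3 and at 109, 102 and 80.3 CPM in wild-type cultures 1 to 3. The lowest mutant and the highest wild-type library nearly met, yet did not overlap. Its log2 fold change was 0.34 ± 0.05 and edgeR with the block gave an adjusted p of 0.0235. Prc1, which bundles the antiparallel microtubules of the spindle midzone (chromosome 7, 80294450 to 80316259, plus strand), lay at 87.8, 95.1 and 81.9 CPM in the mutant and at 71.5, 78.4 and 64.5 CPM in wild type, again with the groups apart. It rose by 0.29 ± 0.04, where edgeR adjusted p to 0.0280. Rccd1 shares 911 exonic bases with it on the other strand and stood at 5.69 to 8.11 CPM. How reads in the shared bases were counted is not known, as no strand or overlap setting was given.

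Bub1b encodes BUBR1, the checkpoint protein that inhibits CDC20 until all chromosomes are attached (chromosome 2, 118598211 to 118641591, plus strand). It lay at 54.1, 38.4 and 48.5 CPM in mutant cultures 1 to 3 and at 39.7, 32.1 and 32.8 CPM in wild-type cultures 1 to 3. Here the groups overlapped, since wild-type library 1 was above Sharpin-cpdm library 2, but each number showed the mutant higher. The log2 fold change was 0.41 ± 0.07 and edgeR with the block gave an adjusted p of 0.0334. With the block, DESeq2 called 2 of these 4, Psrc1 and Anln (0.394% of all genes), and limma-voom all 4 (0.469%). With other settings of the blocked edgeR fit the number of members called was 5 with plain library sizes (0.431% of all genes), 8 when every gene with at least 1 count was kept (0.643%) and 7 with offsets for GC and length (0.722%).

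**Figure D4:**
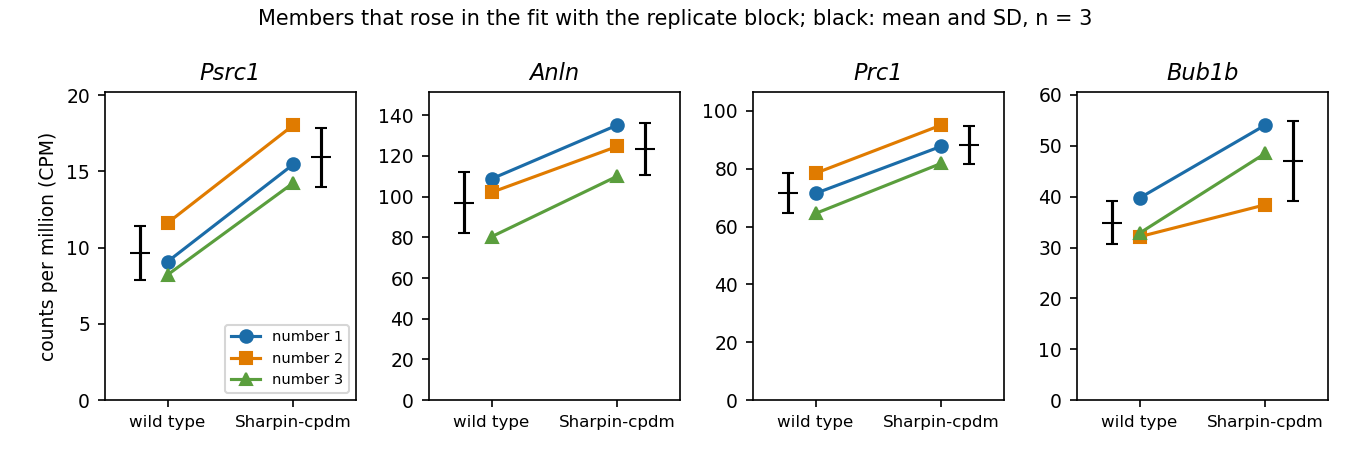
CPM of Psrc1, Anln, Prc1 and Bub1b in each library; lines join the wild-type and Sharpin-cpdm libraries of the same number, and black bars are the mean and SD of 3 libraries. Each of the 12 lines goes up, and the levels of the groups are apart except for Bub1b.

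Among the kinases and cyclins of mitotic entry, 0 of 8 passed and all 8 were higher in the mutant in every number, with log2 fold changes between 0.17 and 0.32 in the fit with the block. Cdk1, the kinase at the centre of mitotic entry and the most abundant of the group by CPM, lay at 92.0, 97.49 and 68.3 CPM in the mutant and at 76.9, 87.0 and 55.2 CPM in wild type. The groups overlapped widely, with number 3 low in both genotypes. The log2 fold change was 0.23 ± 0.05 and edgeR with the block gave an adjusted p of 0.0656. Ccnb2, cyclin B2, had the smallest difference of the group, with 39.6, 32.3 and 38.1 CPM in the mutant against 35.7, 31.5 and 29.5 CPM in wild type (0.17 ± 0.07, edgeR block, adjusted p 0.289). Plk1 and Aurka, the Polo and Aurora A kinases of spindle poles, had 0.29 each, Nek2, a centrosome kinase, 0.28, and Ccna2 and Ccnb1, cyclins A2 and B1, 0.22 and 0.32. Cdca3, which helps remove the mitosis inhibitor WEE1, had 0.32 with an adjusted p of 0.0511.

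Foxm1 and Mybl2, the transcription factors that work with MuvB on the CHR, also lay above 0 without passing. Foxm1 stood at 57.2, 52.2 and 52.9 CPM in the mutant and at 51.2, 50.6 and 38.1 CPM in wild type; the groups did not overlap, but the lowest mutant and highest wild-type library differed by little more than 1 CPM. Its log2 fold change was 0.21 ± 0.08, and edgeR with the block gave an adjusted p of 0.242. Mybl2, which encodes B-Myb, was the most variable member, between 5.48 and 16.6 CPM in wild type and 10.8 and 17.98 CPM in the mutant, and rested on as few as 78 counts in wild-type library 3 (0.43 ± 0.16, edgeR block, adjusted p 0.246).

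Of the chromosome proteins, Top2a, the topoisomerase that untangles sister chromatids, had the highest CPM of the list. It was measured at 202, 199 and 182 CPM in Sharpin-cpdm libraries and at 175, 174 and 125 CPM in wild-type libraries, with the groups apart (0.30 ± 0.07, edgeR block, adjusted p 0.0918). Mki67, the Ki-67 antigen that coats mitotic chromosomes and serves as a proliferation marker, lay at 149.7, 148 and 144 CPM against 141, 132 and 106 CPM. These groups were also apart, with mutant libraries spread by 0.06 and wild-type libraries by 0.41 on the log2 scale; the log2 fold change was 0.22 ± 0.07 and edgeR with the block gave an adjusted p of 0.167.

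The chromosomal passenger complex corrects faulty attachments and acts again in cytokinesis. Its kinase Aurkb had a log2 fold change of 0.25, and its targeting subunits Birc5 (survivin) and Cdca8 (borealin) had 0.37 ± 0.11 and 0.35. Birc5 lay at 38.9, 37.4 and 34.5 CPM in the mutant and at 33.4, 32.7 and 20.5 CPM in wild type, so that wild-type library 3 alone was far below the rest. Cdca8, at 42.7, 40.8 and 31.6 CPM against 31.7, 34.7 and 23.8 CPM, overlapped between groups and missed the threshold narrowly, at a standard error of 0.06. At the kinetochore, Cenpa, the histone H3 variant of centromeres, had 0.33, Ndc80, which grips microtubules, 0.30, and Cenpf 0.21. The motor gene Cenpe lay at 64.2, 43.7 and 50 CPM in the mutant and at 56.3, 37.7 and 37.7 CPM in wild type, where number 1 was high in both genotypes (0.26 ± 0.06, edgeR block, adjusted p 0.0845).

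Among the 5 checkpoint genes Bub1b rose and 4 did not pass. Bub1, a kinase of the unattached kinetochore, stood at 36.8, 31.6 and 30.6 CPM in the mutant and at 28.5, 29.96 and 24.5 CPM in wild type, just apart. Ttk, which encodes the checkpoint kinase MPS1, stood at 19.1, 15.2 and 15.7 CPM against 15.1, 13.3 and 9.91 CPM, where the closest libraries of the groups differed by little. Their log2 fold changes were 0.24 ± 0.07 and 0.38 ± 0.11, and edgeR with the block gave 0.171 and 0.152 as adjusted p. Mad2l1, which encodes the checkpoint protein MAD2, had 0.22. Bub3 had the smallest difference of all members, at 103, 109 and 89.8 CPM in the mutant and 92.7, 109 and 83.6 CPM in wild type, with number 2 level and a log2 fold change of 0.07 ± 0.05.

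Cdc20 and Ube2c, the activator and the ubiquitin-conjugating enzyme of the anaphase-promoting complex, had log2 fold changes of 0.40 ± 0.11 and 0.21 ± 0.06 and neither passed. Cdc20 lay at 55.9, 45.8 and 45.9 CPM in the mutant and at 48.1, 38.9 and 26.4 CPM in wild type, a spread of 0.87 on the log2 scale within wild type that exceeds its difference between genotypes.

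Of the 7 spindle motors and microtubule proteins only Psrc1 rose. Tpx2, which activates Aurora A and nucleates microtubules, was the most abundant by CPM, with 129, 110.2 and 106 CPM in the mutant and 101, 106 and 71.5 CPM in wild type. Its highest wild-type library lay just above its lowest mutant library (0.31 ± 0.09, edgeR block, adjusted p 0.142). Kif2c, a kinesin that dismantles microtubule ends, lay at 33.7, 26.9 and 28.9 CPM against 26.8, 24.1 and 24.3 CPM, and Nusap1, which binds spindle microtubules near chromosomes, at 26.6, 21.96 and 23.8 CPM against 21.6, 20.6 and 18.3 CPM. Both were just apart between groups, with log2 fold changes of 0.23 ± 0.07 and 0.25 ± 0.08. Kif11, the motor that separates spindle poles, overlapped, with 55.6, 52.1 and 47.3 CPM in the mutant and 46.1, 51.6 and 36.0 CPM in wild type (0.21 ± 0.07). Spag5 (astrin) and Ckap2 had 0.35 and 0.29.

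In the central spindle and cytokinesis group, 2 of 6, Anln and Prc1, rose. Ect2, the exchange factor that activates RhoA at the furrow, lay at 41.4, 37.8 and 36.5 CPM in the mutant and 36.0, 33.3 and 26.8 CPM in wild type, with the groups just apart and a log2 fold change of 0.26 ± 0.07 (edgeR block, adjusted p 0.120). Racgap1 and Kif23, which together form the centralspindlin complex that recruits ECT2, had 0.31 and 0.23, and Kif20a, a midzone kinesin, 0.27. Kif20a shares 1271 exonic bases with Cdc23 on the other strand, and in all 11 members share exonic bases with an annotated gene; the strand setting of the counting was not given in the sources used here.

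Levels can be compared between genes only roughly, per length of exon. In wild type, Ccnb2, Cdc20 and Tpx2 were highest at 21.0, 20.2 and 19.9 CPM per kilobase, and Cenpf, Mybl2 and Ccnb1 lowest at 2.11, 2.41 and 2.52. Ccnb1 thus stood far below its relative Ccnb2; both have an annotated pseudogene, so their levels are uncertain where reads are shared with it. The exon length used covers all annotated transcripts, 4217 bases for Ccnb1 and 1531 for Ccnb2. It can exceed the length of the transcript present in the cells, so the order of genes depends in part on the annotation.

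Members also differed between cultures of the same genotype. Over the 3 wild-type libraries the highest and lowest CPM of a member were 0.50 apart on the log2 scale in the median. For 34 of 39 this range exceeded the difference between genotypes, and the other 5 were Bub1b, Kif2c, Nusap1, Psrc1 and Prc1. The share of all tested genes was not computed for this count, nor for the counts of lowest and highest libraries that follow. Wild-type library 3 was the lowest of all 6 libraries for 34 members. Sharpin-cpdm library 1 was the highest for 32, and Sharpin-cpdm library 2 for the other 7, which were Cdk1, Mybl2, Bub3, Mad2l1, Ube2c, Psrc1 and Prc1. Between wild-type libraries 2 and 1 the members split: Mybl2 and Mad2l1 were higher in library 2 by 0.53 and 0.38, while Cenpe, Nek2, Plk1 and Cenpf were lower, at log2 differences of -0.58, -0.54, -0.48 and -0.48. The median over the members was -0.11, beside 0.41 over 46 DNA replication genes and -0.052 over all tested genes. Between wild-type libraries 3 and 1 both lists were lower, with medians of -0.42 and -0.39, beside -0.02 over all tested genes.

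Other cell cycle genes were read from the same fit. Of 78 further mitotic genes, 77 had a log2 fold change above 0 in the fit with the block. With the block 0 passed in edgeR, DESeq2 or limma-voom, with 34 higher and 0 lower at an unadjusted p under 0.05. Their median log2 fold change was 0.21. In all 3 same-numbered comparisons 66.7% of them were higher in the mutant, and their median log2 ratio in number 2 was 0.07. Mutant and wild-type CPM were apart and higher in the mutant for 9 of the 78. Of all tested genes 22.7% were higher in all 3 comparisons and 3.35% were apart and higher. Of all tested genes 49.5% lay above 0 and 7.49% were higher at that unadjusted p. Dlgap5, a spindle microtubule protein, stood at 33.7 ± 5.63 CPM in the mutant and 26.3 ± 4.34 CPM in wild type, and Pttg1, which encodes securin, at 16.3 ± 2.98 and 11.8 ± 1.47 CPM (SD, n = 3), and edgeR with the block gave 0.0742 and 0.0812 as adjusted p. Of the 46 DNA replication and S phase genes 42 lay above 0, with a median of 0.20, and 67.4% were higher in all 3 comparisons. Their median log2 ratio in number 2 was 0.07, and 0 of them had the groups apart. With the block 1 rose, where 0.394% of all tested genes did. It was Rrm1, a subunit of ribonucleotide reductase, which rose by 0.33 ± 0.05 (edgeR block, adjusted p 0.0299). Number 2 was high and number 3 low in both genotypes, at 231, 320 and 191 CPM in the mutant and 184, 273 and 137 CPM in wild type.

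Of 15 genes of the anaphase-promoting complex, which ends mitosis, 13 lay above 0 with a median of 0.05. A list of 13 genes for the DREAM and MuvB complexes, which also held Rb1 and Dyrk1a from outside them, had 7 above 0 and a median of 0.01. In either list 0 were called by edgeR, DESeq2 or limma-voom with the block. At an unadjusted p under 0.05 the first list held 0 genes. The second held 1 higher, Tfdp1, the partner of E2F factors (0.16 ± 0.05, edgeR block, adjusted p 0.170). It also held 1 lower, Rbl2, which encodes the DREAM pocket protein p130 (-0.13 ± 0.05, edgeR block, adjusted p 0.254). Of all tested genes 7.49% were higher at that unadjusted p, and 2327 of 13442 passed it in either direction. Of 15 G1 cyclins, kinases and inhibitors 2 rose and 0 fell, with a median of 0.06, where 0.394% of all tested genes rose and 2.11% fell. Ccnd1, cyclin D1, which carries growth factor signals to the cell cycle, lay at 86.1, 107 and 84.5 CPM in the mutant and 63.6, 80.8 and 61.8 CPM in wild type, apart between groups, and rose by 0.42 ± 0.04 (edgeR block, adjusted p 0.0109). Ccng1, a p53 target, rose by 0.28 ± 0.04 (edgeR block, adjusted p 0.0268). Cdkn1a, a p53 target of the same list, did not pass (-0.04 ± 0.12, edgeR block, adjusted p 0.897).

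**Figure D5:**
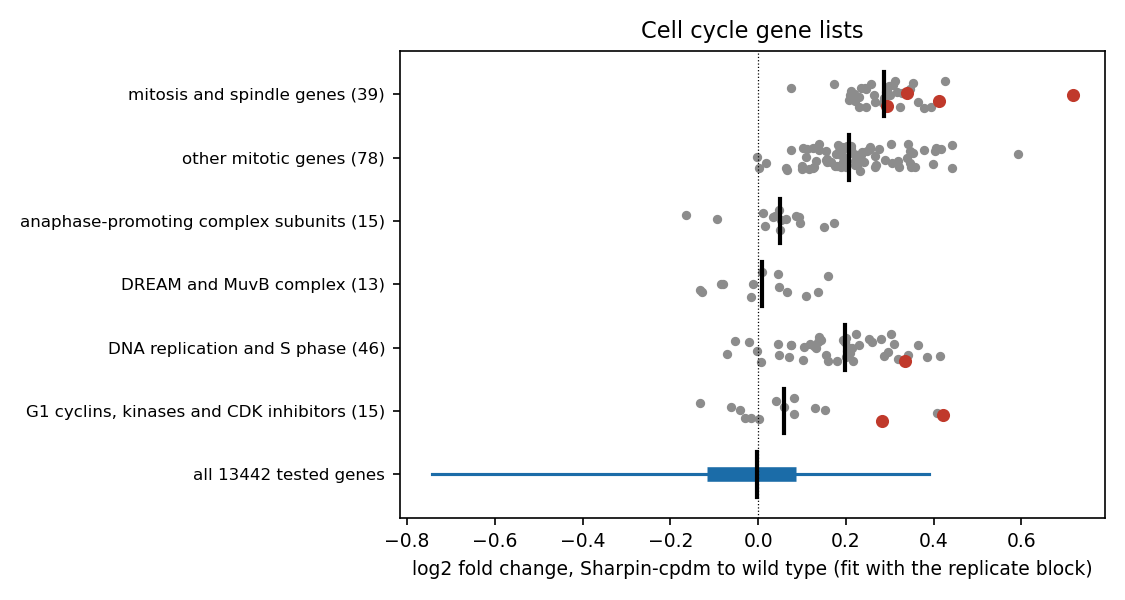
Log2 fold change of each tested gene in the fit with the replicate block, by list (number of genes in brackets); red points passed an adjusted p of 0.05, black bars are medians, and the blue box and line span the central 50% and 95% of all 13442 tested genes. Medians are 0.29 for the members, 0.21 for other mitotic genes, 0.20 for replication genes and between 0.01 and 0.06 for the other lists.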

How the data were processed

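Counts per gene symbol were deposited by the authors, 1 table per library, as whole reads; the tools named in the submitters' processing notes are TopHat2 2.0.10, HTSeq 0.5.4p3 and bcl2fastq 1.8.4, with the mm10 build. The sources used here give no annotation, strand or overlap setting. Summary rows (5 per table), between 48.8% and 51.2% of entries, were left out; reads placed at several positions are missing from gene counts. Depth was 13570649 to 15656196 counts per library, and members had between 78 and 2741 counts. CPM divides by the gene-row total.

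Counts were tested in R 4.3.3 with edgeR 4.0.16 (filterByExpr, 13442 genes, TMM, quasi-likelihood F-test, two-sided, Benjamini-Hochberg over all tested genes, threshold 0.05). The fits were also run on counts simulated with the replicate block built in, which cannot check the pairing itself. A standard error is the absolute log2 fold change over the root of F. DESeq2 1.42.0, limma 3.58.1, other scalings and filters, GC and length offsets and left-out libraries were the alternatives.

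The labels number libraries 1 to 3 in each genotype. Deviations from group means correlated across genes at 0.457, 0.809 and 0.737 for same-numbered libraries. For libraries of different numbers the correlations lay between -0.691 and 0.00677. Deviations within a group sum to 0, so these values are not independent of each other. The numbers were treated as pairs on this ground. That comes from the same counts, as the labels do not say what a number marks, and every call with the block rests on it.

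Members and lists were chosen with earlier results of these data known, so no test over a list was made. Values in every library are given for members called, without overlap, most abundant in a role or with the 3 largest or smallest log2 fold changes of the fit without the block. Symbols were matched to GENCODE M21 and RefSeq; 5 mitotic genes were found under older symbols. One marker list is not reported here.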

Additional observations from a re-analysis of the deposited data

How the results depend on the processing

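The median log2 fold change of the members was between 0.28 and 0.30 under every other normalization, filter and test, and between 0.15 and 0.36 when 1 library was left out without the block; the lowest value, 0.15, came without wild-type library 3. With the block and without both libraries of a number it was between 0.21 and 0.32. Of 399 alternative values of the 21 members named with full values, 367 kept direction and side of the threshold, 30 passed it (all with the block) and 2 changed sign: Bub3 was at -0.02 without Sharpin-cpdm replicate 2 and at -0.02 without wild type replicate 3, over a leave-one-out range up to 0.20.

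Calls depended on the pairing by replicate number. Against 0 members without the block, the block gave 4 members in edgeR, 2 in DESeq2, 4 in limma-voom, 5 with library sizes only, 8 with every gene of at least 1 count, and 7 with GC and length offsets; leaving out replicates gave between 0 and 8. Over all genes, where edgeR without the block called 0 (307 at an unadjusted p under 0.05), the block gave 337, 341, 379, 365, 502 and 423 in the same order, and 642, 157 and 54 without replicate 1, 2 or 3; leaving out 1 library without the block gave 0. DESeq2 without the block called 10 genes. The block brought the DNA replication list to 1 and the G1 list to 2 calls, each from 0, and changed no other cell cycle list; it also gave the marker calls of the report. TATA-like letters were in 2.63% of member windows and in 0.0% of windows of 100 bases before to 50 after the start.

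The cause of these changes was not tested. With 3 pools per genotype and members at 78 to 2741 counts per library, calls with the block followed each member's standard error, between 0.04 and 0.16, as well as the size of its difference.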
